A study of Mus musculus with 6 samples.

Results

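The transcripts of 10 genes for non-Notch proteins with EGF-like repeats were followed in mouse quadriceps after deletion of Pofut1. The genes were Agrn, Vcan, Svep1, Plat, Plau, Slit2, Slit3, Celsr1, Celsr2 and Fat1, and they were taken as a named list. The list applies no threshold to measured values, but it was drawn up with earlier results of these data known. They are 10 of the 18194 named genes on the array, and 23 of its 45101 probe sets were annotated to exactly 1 of them. A total of 0 of these probe sets was shared with another gene.

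Pofut1 encodes protein O-fucosyltransferase 1, which adds fucose to a serine or threonine inside an EGF-like repeat as the protein passes through the endoplasmic reticulum. Notch receptors are its best known substrates, but the same kind of repeat occurs in matrix proteoglycans, plasminogen activators, axon guidance ligands and giant cadherins. O-linked fucose was described early on plasminogen activators, and muscle agrin is a further reported carrier. For the other members the name of carrier is a candidate one. The arrays read the RNA of these proteins and not the sugar on them.

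The knockout group held 3 quadriceps samples from C57/Bl6 mice aged 2 months that carried a skeletal α actin cre transgene and Pofut1flox/flox alleles. The control group held 3 quadriceps samples from mice of the same strain and age that carried the same cre transgene and wild-type Pofut1 alleles. The question for these genes is whether loss of the enzyme goes with a change in the RNA of its candidate substrates. The cre transgene acts where the skeletal α actin promoter is active, that is in muscle fibres, so Pofut1 of fibroblasts, vessels, nerves and leukocytes in the same tissue piece was not targeted. In such whole-tissue RNA, fewer cells of a type and less RNA per cell cannot be told apart. Nothing in the labels ties each sample to an animal of its own, and the p-values therefore cover only the variation among these 6 samples, which may be technical in part.

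Values are deposited intensities on a linear scale, in arbitrary units, with 1 array per sample. A level of 67.2, the 95th percentile of 33 measured genes restricted to other tissues, served as the background, and 58.7% of all genes had a mean above it. The array labelled control replicate 3 stood apart, with correlations of 0.940 to 0.945 to the other arrays, which correlated with each other at 0.980 to 0.991. Its Gapdh 3' over 5' intensity ratio, a measure of RNA integrity and cDNA length, was 10.5. Knockout replicate 2 had a ratio of 3.70, and the remaining 4 arrays lay at 1.73 to 1.97. Pofut1 itself read 220.1, 231.1 and 194.3 in knockout replicates 1 to 3, against 301.4 and 379.8 in control replicates 1 and 2 and 90.6 in the array labelled control replicate 3, which went against its label. All 10 markers of skeletal muscle fibres were above background.

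The difference between the groups did not pass the test for any of the 10 genes. In limma, 0 of the 10 genes passed an adjusted p of 0.05, where 0% of all genes did, and 0 had an unadjusted p under 0.05, against 2.58% of all genes. Unmoderated t statistics gave 0 members by both measures as well, where 3.38% of all genes had an unadjusted p under 0.05. Of the 23 probe sets, 0 had an unadjusted p under 0.05, against 2.03% of all probe sets. The knockout and control values overlapped for all 10 genes and for all 23 probe sets, while 9.01% of all genes and 7.98% of all probe sets had no overlap. Values were higher in the knockout for 5 members and lower for 5, and 46.3% of all genes were higher. The median log2 fold change, knockout over control, was -0.0052 over the members and -0.0086 over all genes.

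**Figure D1:**
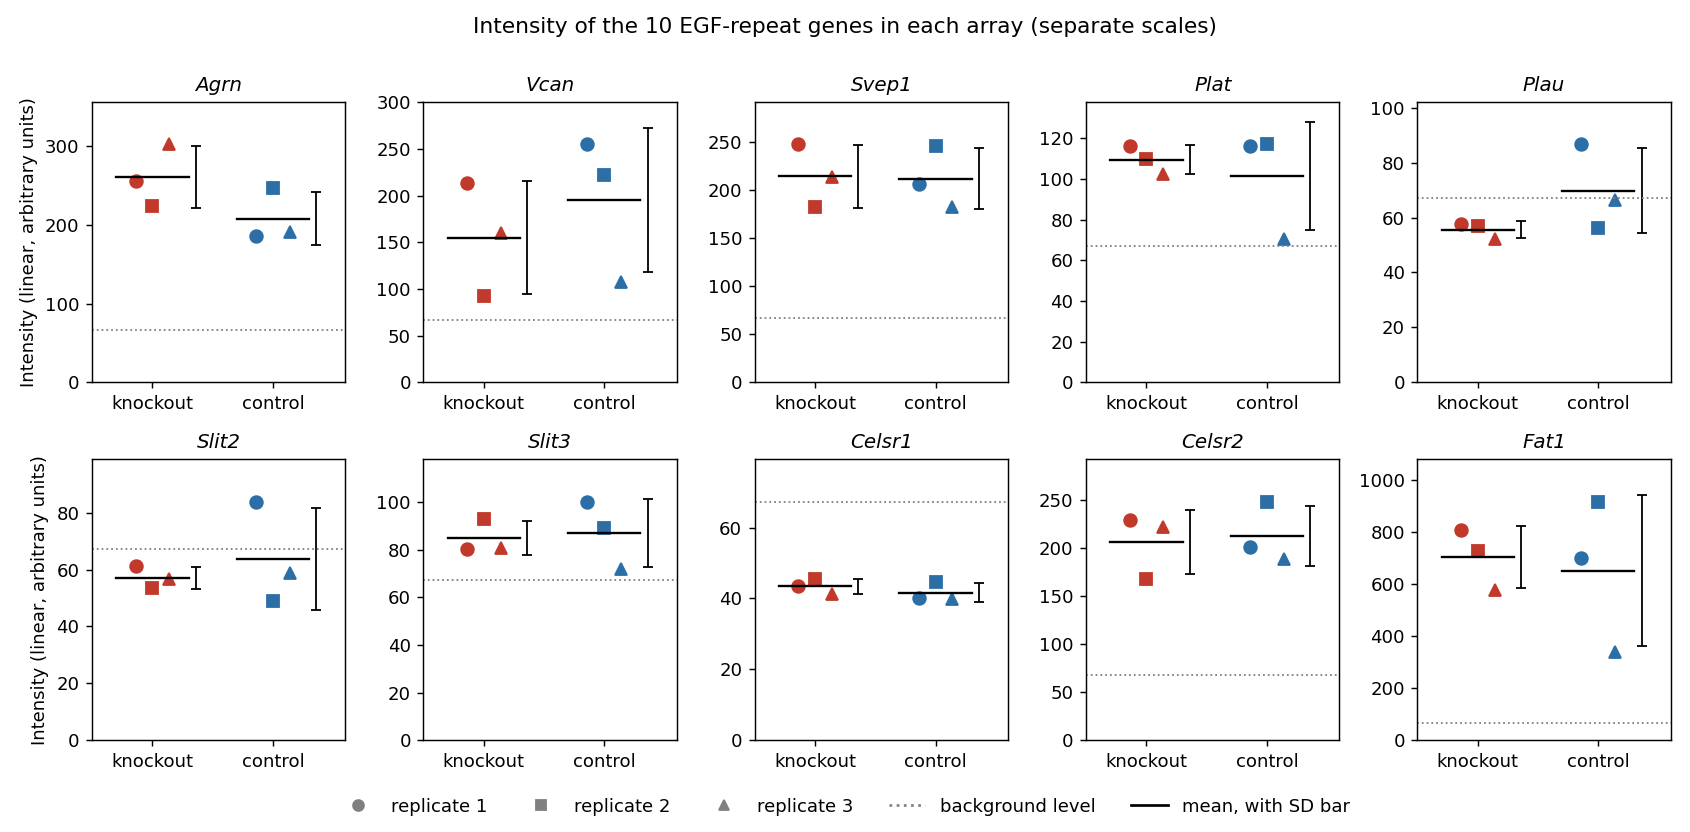
Deposited intensity (linear, arbitrary units, a separate scale in each panel) of the representative probe set of each gene in the 3 knockout arrays (red, left) and the 3 control arrays (blue, right), with symbols for the replicates, bars for the mean and SD, and a dotted line for the background level of 67.2. The groups overlap in every panel, and Plau, Slit2 and Celsr1 lie around or below the background.

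Leaving out the array labelled control replicate 3 changed the balance of signs. Then 2 members were higher in the knockout and 8 lower, where 48% of all genes were higher, and the median over the members was -0.14, against -0.0042 over all genes. The 2 sets are not alike in brightness, as 7 of the 10 members and 58.7% of all genes had a mean above background. Still 0 members passed, and 0 had an unadjusted p under 0.05, against 5.99% of all genes. All 10 members read lower in that array than the mean of control replicates 1 and 2. Among the 7 members above background the median difference was -0.39 on the log2 scale, beside -0.24 for all genes above background, of which 65.0% were lower there. The part of RNA quality in these low values was not tested.

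The proteoglycans and the large matrix protein Svep1 come first. Agrin is a heparan sulphate proteoglycan of basement membranes, and its nerve-derived form clusters acetylcholine receptors at the neuromuscular junction. Agrn read 255.8, 224.7 and 302.4 in the knockout arrays, against 186.5, 246.7 and 191.4 in the control arrays. Knockout replicate 3 was the highest of all arrays, but knockout replicate 2 lay below control replicate 2, so the groups overlapped. The means were 260.9 ± 39.1 in the knockout and 208.2 ± 33.4 in the control (SD, n = 3 each). That is a log2 fold change of 0.33 ± 0.22 (SE), or 1.25-fold with a 95% interval of 0.877 to 1.79, and limma gave an adjusted p of 0.971. The exact two-sided permutation p was 0.2, where 3 against 3 arrays cannot give less than 0.1. Without the array labelled control replicate 3 the log2 fold change was 0.27, and over all arrays left out in turn it stayed between 0.22 and 0.46. A second Agrn probe set read 37.9 to 39.2 in all 6 arrays, at the floor of the scale.

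The Agrn gene has 2 annotated starts in RefSeq, and the 1 probe set above background does not tell which of them gave the RNA. The windows at both starts are shown to let a reader see how different they are, together with those of Vcan and Fat1, the 2 members above background whose windows hold both motifs searched. Each runs from 250 bases before to 50 bases after an annotated start in RefSeq, build GRCm38.p6, on the strand of the gene. Capitals mark TGGGAA, the core sequence bound by RBPJ, the DNA-binding partner of activated Notch, and CANNTG, the E-box bound by basic helix-loop-helix factors such as MyoD, searched on both strands.
Agrn, upstream start, chr4:156197439-156197738, minus strand: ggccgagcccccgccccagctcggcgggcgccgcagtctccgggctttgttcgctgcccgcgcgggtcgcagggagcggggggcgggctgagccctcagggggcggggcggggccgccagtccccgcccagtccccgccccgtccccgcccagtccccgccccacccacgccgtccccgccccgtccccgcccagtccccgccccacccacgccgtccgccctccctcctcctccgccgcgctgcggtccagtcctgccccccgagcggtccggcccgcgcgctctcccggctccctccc
Agrn, downstream start, chr4:156186210-156186509, minus strand: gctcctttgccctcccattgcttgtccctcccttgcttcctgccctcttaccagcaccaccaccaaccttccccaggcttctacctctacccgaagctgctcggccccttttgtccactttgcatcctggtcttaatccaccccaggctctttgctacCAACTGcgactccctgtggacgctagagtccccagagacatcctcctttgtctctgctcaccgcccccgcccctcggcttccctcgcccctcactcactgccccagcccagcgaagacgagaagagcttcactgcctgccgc
Vcan, chr13:89742463-89742762, minus strand: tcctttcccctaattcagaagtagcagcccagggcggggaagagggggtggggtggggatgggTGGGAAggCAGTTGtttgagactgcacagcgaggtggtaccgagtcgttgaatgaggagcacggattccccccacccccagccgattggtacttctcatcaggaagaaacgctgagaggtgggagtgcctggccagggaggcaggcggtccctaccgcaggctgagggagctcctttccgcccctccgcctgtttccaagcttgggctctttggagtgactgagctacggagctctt
Fat1, chr8:44949958-44950257, plus strand: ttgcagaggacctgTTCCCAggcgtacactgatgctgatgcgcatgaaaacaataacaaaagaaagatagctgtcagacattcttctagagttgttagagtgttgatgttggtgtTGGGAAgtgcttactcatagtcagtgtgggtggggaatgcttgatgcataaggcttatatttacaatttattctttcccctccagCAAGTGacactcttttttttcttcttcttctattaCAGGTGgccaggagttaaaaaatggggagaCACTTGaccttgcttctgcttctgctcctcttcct

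No capitals appear in the upstream Agrn window, which held 42 CpG dinucleotides, against 11 in the downstream one, which held 1 E-box. The Fat1 window held 2 CpG dinucleotides, where the lower quartile of all windows was 3. Windows were found for 7 of the 10 members, 8 windows in all; Plat, Plau and Celsr1 had none in the table. TGGGAA occurred in 3 of the 8, those of Svep1, Vcan and Fat1, and in 25.6% of all 32851 windows of the same length. CANNTG occurred in 4 of the 8, those of Celsr2, Vcan, Fat1 and the downstream start of Agrn, and in 72.3% of all windows. The 2 motifs overlapped at 0 bases in the member windows. A match describes these letters only and is no evidence of binding, and whether these starts are used in muscle was not tested.

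Versican is a chondroitin sulphate proteoglycan that binds hyaluronan, and its EGF-like repeats lie near its carboxyl end. Vcan read 213.3, 92.3 and 160.2 in the knockout arrays, against 255.1, 222.4 and 108.0 in the control arrays. Both groups spanned a wide range, and the lowest value of each came from an array with a high Gapdh ratio, knockout replicate 2 and the array labelled control replicate 3. The highest array was 2.76-fold above the lowest, and 13.7% of genes above background had a larger range. The log2 fold change was -0.32 ± 0.44 (SE), or 0.802-fold with a 95% interval of 0.391 to 1.64 (limma, adjusted p = 0.971), and the exact permutation p was 0.5. Leaving out the array labelled control replicate 3 moved it to -0.70 ± 0.35 (adjusted p = 0.802), and leaving out knockout replicate 2 brought it to 0.015.

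The summed intensity of fibroblast markers was lowest in the same arrays, but the single markers did not all go that way. All 10 of 10 measured markers were above background, and their summed intensity was 25571, 20144 and 23123 in knockout replicates 1 to 3, against 22344, 22577 and 21024 in control replicates 1 to 3. Of the 10 markers, 7 had their lowest knockout value in knockout replicate 2 and 7 their lowest control value in the array labelled control replicate 3, among them the collagens Col1a2 and Col3a1. Pdgfra, a growth factor receptor of fibroblasts, and Gsn, the actin-binding protein gelsolin, were instead highest of their group in both arrays. Dpp4, a cell surface peptidase, was the highest knockout value in knockout replicate 2, and Col1a1 the highest control value in the array labelled control replicate 3. Summed intensities of adipocyte and satellite cell markers were also lowest of their group in both arrays, so the pattern was not particular to fibroblast markers. Those of the other cell types examined were not lowest in both. The part of cell composition in the Vcan values was not tested. With both arrays of high Gapdh ratio left out, the log2 fold change of Vcan was -0.37, with an unadjusted limma p of 0.133.

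The other probe sets of Vcan did not pass the test either. Of its 8 probe sets, 3 had some array above background and 5 had 0. The second of the 3 read 104.0, 88.2 and 89.4 in the knockout, against 154.2, 109.0 and 100.1 in the control. It had a log2 fold change of -0.35 ± 0.24 (SE; limma over all probe sets, adjusted p = 0.987), close to that of the representative one. The remaining one read 74.6, 45.8 and 61.6 in the knockout, against 84.4, 65.8 and 43.4 in the control, with -0.06 ± 0.28. In both groups it was lowest in the arrays of high Gapdh ratio, as the representative was. The 5 dim ones read 37.6 to 57.2, and the files do not say which versican transcript forms each probe set reads.

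**Figure D2:**
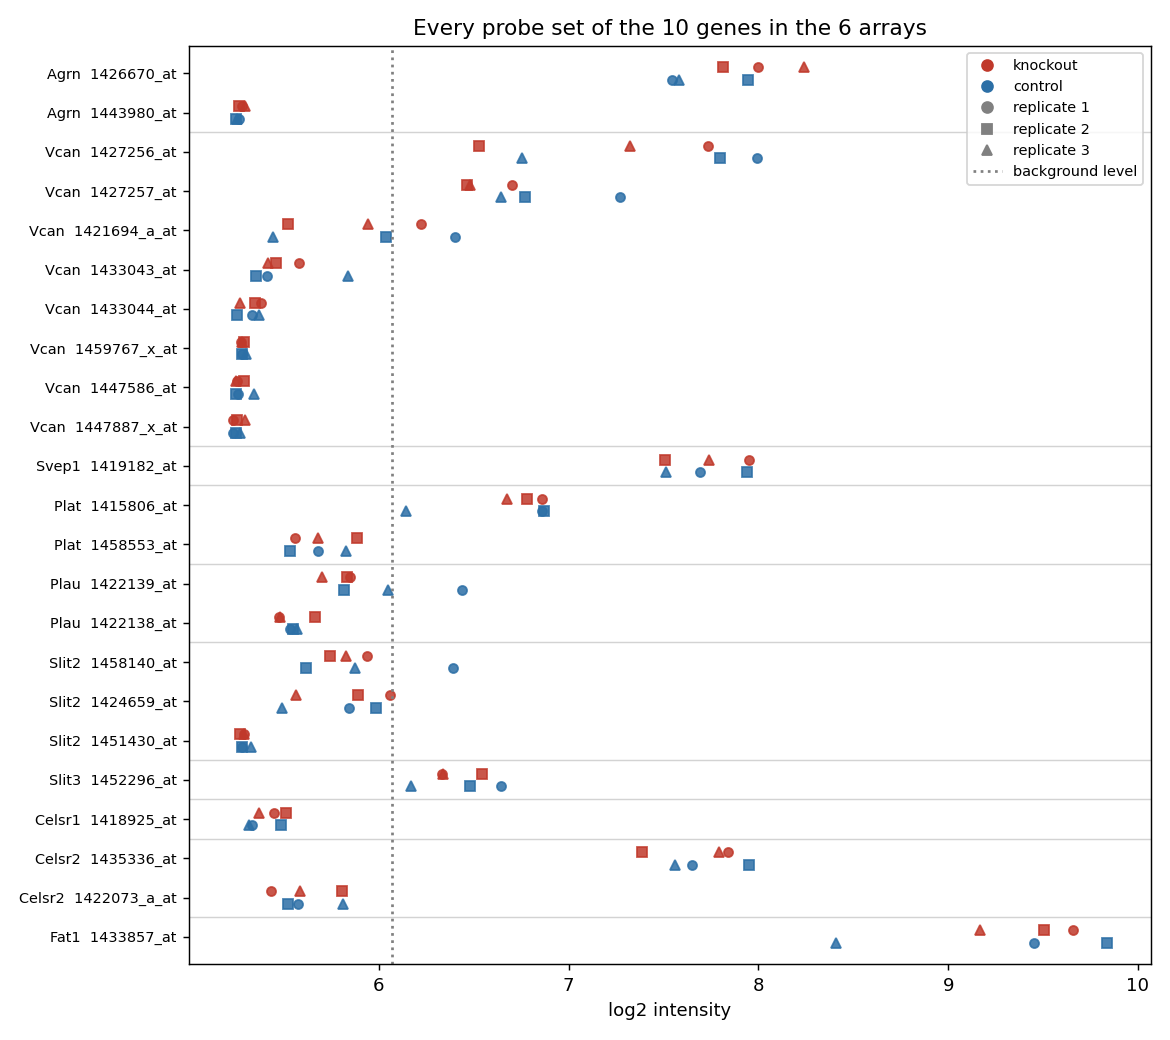
Log2 intensity of all 23 probe sets of the 10 genes (rows, named by gene and probe set), with the 3 knockout arrays (red, upper row of each pair) and the 3 control arrays (blue, lower row), symbols for the replicates and a dotted line for the background. Of the probe sets, 8 lie above background in all 6 arrays, 3 in some and 12 in 0, and the spread of Vcan between arrays is wider than the distance between its groups.

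Svep1 encodes a large secreted protein with many EGF-like and sushi repeats that binds integrin α9β1 and acts in lymphatic vessel formation in mice. It read 247.3, 181.8 and 213.8 in the knockout arrays, against 206.6, 245.3 and 182.6 in the control arrays. The means of 214.3 ± 32.8 in the knockout and 211.5 ± 31.6 in the control (SD, n = 3 each) differed by far less than the spread within either group. Its log2 fold change was 0.02 ± 0.22 (SE), with a 95% interval of 0.704 to 1.46 as a fold. The lowest values again came from knockout replicate 2 and the array labelled control replicate 3, and without that control array the log2 fold change was -0.083.

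Tissue-type and urokinase-type plasminogen activator, encoded by Plat and Plau, cut plasminogen to plasmin, and urokinase takes part in muscle regeneration in mice. Plat read 116.3, 109.8 and 102.2 in the knockout arrays, against 116.3, 116.9 and 70.6 in the control arrays. The knockout values lay close together, and control replicates 1 and 2 stood at or above the highest of them, while the array labelled control replicate 3 lay at 70.6. That 1 array set the direction. The log2 fold change was 0.15 ± 0.26 (SE; fold interval 0.726 to 1.69) over all arrays and -0.09 ± 0.15 without it.

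Plau had 1 array above background and a mean below it, so the size of its difference is uncertain. It read 57.6, 57.0 and 52.1 in the knockout arrays, against 86.6, 56.4 and 66.3 in the control arrays. Control replicate 1 was the array above background, and control replicate 2 lay among the knockout values. The log2 fold change was -0.31 ± 0.17 (SE; limma, adjusted p = 0.971), or 0.808-fold with a 95% interval of 0.614 to 1.06, and the exact permutation p was 0.3. Its sign held when each array was left out in turn, at -0.45 to -0.14. Macrophage markers, of which 8 of 8 were above background, had summed intensities of 7398, 4650 and 4373 in the knockout arrays, against 8469, 4944 and 4851 in the control arrays. Their highest sum was thus also in control replicate 1, but the single markers did not all go that way. Control replicate 1 was the highest control array for 7 of the 8. Over all 6 arrays, Adgre1 was highest in the array labelled control replicate 3 and C1qa in knockout replicate 1. Among the knockout arrays, replicate 1 was highest for all 8, and Plau read 57.6 there, below background. The part of macrophages in the Plau values was not tested. The second probe set of Plau read 44.4 to 50.6 in the 6 arrays and had a log2 fold change of -0.01 ± 0.06.

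Slit2 and Slit3 are secreted ligands of Robo receptors, known from axon guidance and also made outside the nervous system. Slit3 read 80.5, 93.2 and 80.9 in the knockout arrays, against 100.1, 89.3 and 72.0 in the control arrays. The knockout values lay inside the range of the controls. Its log2 fold change was -0.03 ± 0.19 (SE), with a fold interval of 0.716 to 1.34, and -0.16 without the array labelled control replicate 3. Slit2 was near the floor, with 61.3, 53.5 and 56.7 in the knockout arrays, against 83.8, 49.0 and 58.7 in the control arrays. Only control replicate 1 exceeded the background, as with Plau. The log2 fold change of Slit2 was -0.12 ± 0.20 (SE), and its other probe sets, with 0 arrays above background, had 0.06 and -0.01.

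Among the cadherins, Fat1 is a giant atypical cadherin with a role in muscle morphogenesis in mice. It read 808.5, 726.4 and 574.9 in the knockout arrays, against 699.5, 914.1 and 339.6 in the control arrays. The array labelled control replicate 3 was the lowest of all by a wide margin, and the other controls lay on either side of the upper knockout values. The means were 703.3 ± 119 in the knockout and 651.1 ± 290 in the control (SD, n = 3 each). Over all arrays the log2 fold change was 0.21 ± 0.36 (SE), with a fold interval of 0.637 to 2.11. Without the array labelled control replicate 3 it was -0.20 ± 0.19, so the sign of the Fat1 difference rested on that array. Its highest over lowest ratio of 2.69 was exceeded by 14.9% of genes above background.

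Celsr1 and Celsr2 are cadherins with several membrane passes of the planar cell polarity pathway, which orients cells within a sheet. Celsr2 read 228.7, 167.2 and 221.8 in the knockout arrays, against 200.5, 247.6 and 188.5 in the control arrays. The groups overlapped, with knockout replicate 2 the lowest array and control replicate 2 the highest. Its log2 fold change was -0.05 ± 0.23 (SE), with a fold interval of 0.668 to 1.40. Celsr1 lay below background in every array, at 43.5, 45.5 and 41.2 in the knockout, against 40.2, 44.7 and 39.8 in the control. It was therefore not detected above background in either group, and its log2 fold change of 0.063 ± 0.059 (SE) is a difference between values at the floor.

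**Figure D3:**
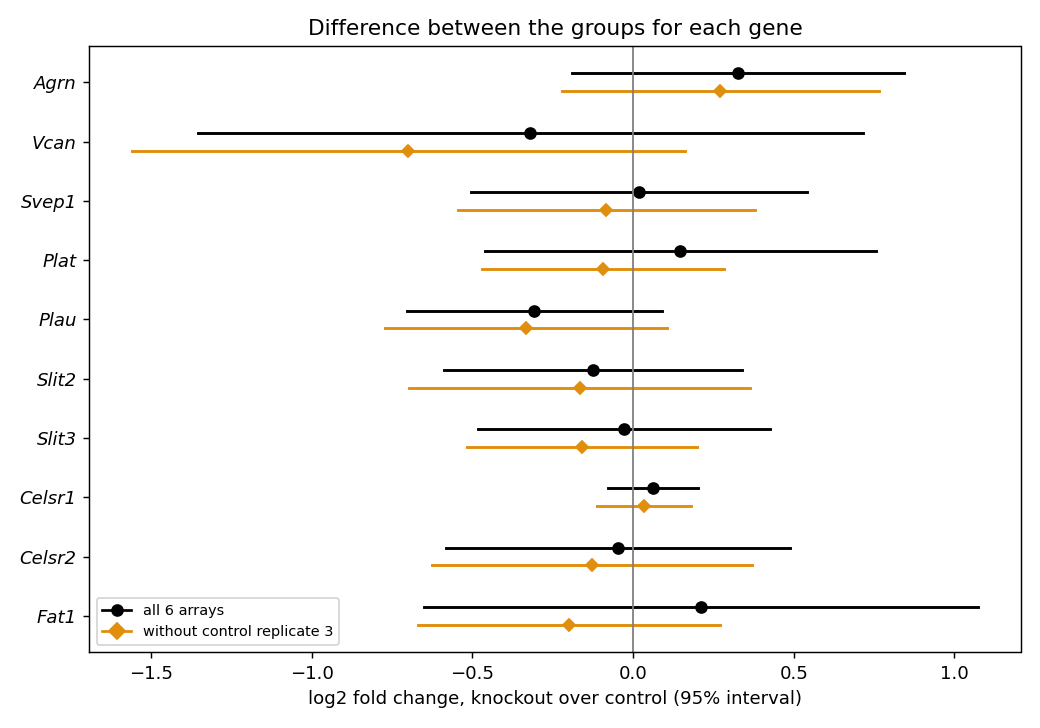
Log2 fold change, knockout over control, of each gene with its 95% interval from limma, over all 6 arrays (black circles) and without the array labelled control replicate 3 (orange diamonds). Every interval includes 0, and those of Svep1, Plat and Fat1 have estimates on opposite sides of 0 in the 2 fits.

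Across the arrays, the lowest values of the 7 members above background fell mostly in the arrays of high Gapdh ratio. Of these 7 genes, 3 had their lowest value in knockout replicate 2, 3 in the array labelled control replicate 3, and 1, Agrn, in control replicate 1. In knockout replicate 2 the low ones were Vcan, Svep1 and Celsr2, and in the array labelled control replicate 3 they were Plat, Slit3 and Fat1. The share of all genes with their lowest value in these arrays was not counted. Knockout replicate 2 was also the only knockout array of female sex pattern, read from Xist and Y-linked genes. In that group Gapdh ratio and sex pattern cannot be told apart. The median difference of knockout replicate 2 from the other knockout arrays was -0.31 on the log2 scale for these 7 genes, beside -0.03 for all genes above background. By count, however, 4 of the 7 were lower there, near the 54.0% of all genes above background that were, and Plat, Slit3 and Fat1 were higher by 0.0098, 0.21 and 0.092. The highest values fell in control replicate 2 for Plat, Celsr2 and Fat1, in control replicate 1 for Vcan and Slit3, in knockout replicate 1 for Svep1 and in knockout replicate 3 for Agrn.

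Genes of similar profile were sought among 10684 other genes above background, by the mean absolute difference of log2 values over the 6 arrays after centring each gene on its mean. For Vcan the nearest were Tmem88b, Sypl2 and Zfp428, at 0.10 to 0.12, where its own mean absolute deviation was 0.49. Agrn was nearest to Dennd4b, Ndrg2 and Nfe2l1, at 0.06 to 0.08, and Fat1 to Rps25, Wdr47 and Armcx4, at 0.07 to 0.08. The nearest genes of Svep1, Plat, Slit3 and Celsr2 were Snrnp35, Btbd10, Renbp and Gm20199, at 0.02 to 0.04. The own mean absolute deviation was 0.21 for Agrn, 0.37 for Fat1 and 0.14 to 0.19 for these 4 members, so the distances of different members cannot be compared directly. These profiles share the arrays and the 2 arrays of high Gapdh ratio, and they describe 6 arrays only.

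Partners of these proteins did not pass the test either. Over the partner lists, 44 genes were measured, of which 0 passed in limma in either direction. At an unadjusted p under 0.05 there were 2, against 2.58% of all genes, and for 3 the groups did not overlap, against 9.01% of all genes. Agrin acts through Lrp4, MuSK, Dok7 and rapsyn, and binds dystroglycan. Of these 5 genes 2 had higher values and 3 lower over all arrays, while 0 were higher and 5 lower without the array labelled control replicate 3. The smallest p belonged to Rapsn, the scaffold that holds acetylcholine receptors, and to Dok7, the activator of MuSK. Rapsn had a log2 fold change of -0.59 ± 0.32 (SE) and Dok7 of -0.70 ± 0.40 (adjusted p = 0.971 for both). Their highest values were those of the array labelled control replicate 3, at 298.7 for Rapsn and 421.7 for Dok7, and without it the log2 fold changes were -0.31 and -0.27. Lrp4, the agrin receptor, read 205.5, 188.0 and 193.2 in the knockout arrays, against 205.1, 257.3 and 72.7 in the control arrays, with a log2 fold change of 0.32 ± 0.46 (SE) that turned to -0.23 without the last of these. Musk had a mean below background.

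For versican the partner with the smallest p was Adamts4, a protease that cuts aggrecan and versican. It read 79.8, 50.6 and 62.2 in the knockout arrays, against 98.5, 138.8 and 88.9 in the control arrays, with no overlap. The log2 fold change was -0.76 ± 0.25 (SE; unadjusted p = 0.0196, adjusted p = 0.971 in limma), and its knockout mean was below background. Without the array labelled control replicate 3 it was -0.89. Fbln1, a fibulin that binds versican-rich matrix, followed with 0.43 ± 0.30, and with 0.14 without that array. In that list 6 genes were higher and 6 lower, with and without that array.

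Planar polarity genes and Fat partners held the other gene of small p, Fzd6, a Frizzled receptor of the Celsr pathway. It read 125.4, 101.2 and 64.3 in the knockout arrays, against 178.8, 162.0 and 337.4 in the control arrays, again with no overlap. Its log2 fold change was -1.19 ± 0.38 (SE; unadjusted p = 0.0166, adjusted p = 0.971 in limma) over all arrays and -0.86 without the array labelled control replicate 3. Scrib, a polarity scaffold, also had no overlap, with -0.30 ± 0.18. Of the 10 measured genes of this list, 5 were higher and 5 lower, against 7 higher and 3 lower without the array labelled control replicate 3.

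Partners of the remaining members had no gene with an unadjusted p under 0.05, and several of their values rested on the array labelled control replicate 3. Slit receptors and effectors had 4 of 8 higher over all arrays and 6 of 8 without that array. The smallest p was that of Srgap3, which was below background. Sdc1, the syndecan heparan sulphate carrier, followed at 0.51 ± 0.42, and at 0.10 without that array. Robo4, the endothelial member of the Robo family, had 0.19 ± 0.23. In the plasminogen system 3 of 5 were higher, and 2 of 5 without that array. Plg, Plaur and Serpinb2 were below background, and Plgrkt, a plasminogen receptor, had 0.34 ± 0.48, which turned to -0.19 without it. Lrp1, the endocytic receptor that clears plasminogen activators, had -0.095 ± 0.15, and -0.15 without it. For Svep1 1 of 4 partners was higher, and Itga9, its integrin receptor chain, had -0.34 ± 0.24. Tek, an endothelial receptor kinase, had 0.27 ± 0.27, which turned to -0.035 without the array labelled control replicate 3.

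Other genes for proteins with EGF-like repeats, such as Slit1, Fat3, Fat4, Nid1 and the clotting factors, had values on both sides. Of 34 measured, 15 had a mean above background, 18 were higher and 16 lower, and the median log2 fold change was 0.01. A total of 0 passed, and 1 had an unadjusted p under 0.05 in limma, against 2.58% of all genes. That 1 was Fat3, a cadherin related to Fat1 that lay below background in every array (0.17 ± 0.07, SE). The next smallest p was that of F10, clotting factor X, also below background, at -0.11 ± 0.06, and at -0.054 without the array labelled control replicate 3. Without that array 3 of the 34 had an unadjusted p under 0.05 in limma, against 5.99% of all genes, and 0 passed. They were Fat3, at 0.23, and Thbd and Sned1, both with a mean above background, at -0.74 and -0.46. Over all arrays Thbd had 0.21 ± 0.75 (SE) and Sned1 0.22 ± 0.56.

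Enzymes that glycosylate EGF-like repeats, including Pofut1, had mostly lower values. Of 9 measured, 1 was higher and 8 lower, against 53.7% of all genes lower, with a median of -0.08, and 0 passed. Over all arrays 0 had an unadjusted p under 0.05 in limma, against 2.58% of all genes. The groups overlapped for all 9, while 9.01% of all genes had no overlap. Some of the lower values were close to 0, as for Mfng at -0.016, and Gxylt2 and Xxylt1 had a mean below background. Gxylt1, a xylosyltransferase that extends O-linked glucose, had -0.25 ± 0.19, and the fringe gene Lfng, which extends O-linked fucose, had -0.37 ± 0.32. The Lfng value rested on the array labelled control replicate 3, which read 164.1 against 77.4 and 79.7 in the other controls, and was -0.011 without it. Pofut1 had -0.02 ± 0.52 over all arrays and -0.66 without the array labelled control replicate 3 (unadjusted p = 0.0079, adjusted p = 0.802 in limma).

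**Figure D4:**
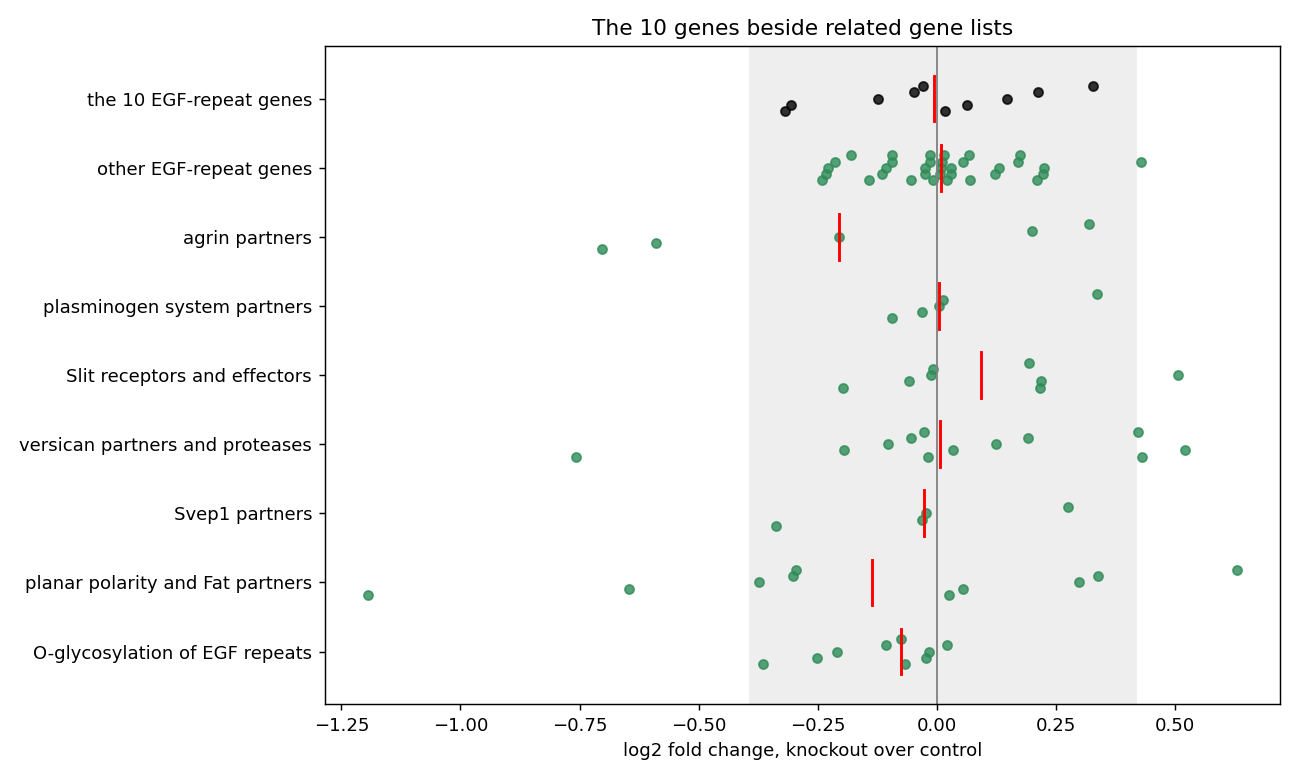
Log2 fold change, knockout over control, of single genes (points) in the 10 EGF-repeat genes and in 8 related lists, with the median of each list (red line) and the range from the 5th to the 95th percentile of all genes (grey band, -0.39 to 0.42). All 10 genes lie inside the band, and Fzd6, at -1.19, and Adamts4, at -0.76, are the points farthest below it.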

How the data were processed

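RNA of 6 quadriceps samples was extracted with Trizol, column-purified and amplified to biotin-labelled cDNA, per the labels' protocols. The deposited intensity values, 37.2 to 16069, are on a linear scale. GCOS and RMA are named in the submitters' processing notes, without versions, and whether the authors rescaled the values after RMA is not stated. RMA compresses the fold changes of dim probe sets. The number of arrays limits the precision.

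Probe sets were named through the platform annotation (34958 with 1 gene, 932 with several, 9211 not listed). For each of 18194 genes the brightest probe set on average, among those naming it alone, was used. Log2 intensities were fitted with limma 3.58.1 in R 4.3.3 (trended eBayes, with group as sole factor). Tests were two-sided and p-values adjusted by Benjamini-Hochberg across genes; all 34958 probe sets were fitted likewise. Alternatives were the replicate block, quantile normalization, median centring, array weights, other variance models, removal of dim genes, the mean of probe sets or each on its own, sex pattern as a term, and leaving out 1 array at a time. Members and lists were chosen with earlier results of these data known. All 10 members are named; from each further list the 2 genes of smallest p, and any other gene was chosen after its values were seen.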

Additional observations from a re-analysis of the deposited data

How the results depend on the processing

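In limma 0 members, 0 of all genes, 0 other EGF-repeat genes and 0 partner genes passed under all 17 alternatives. The lowest adjusted p of a member was 0.466, for Plau with array weights, and at an unadjusted p under 0.05 the all-gene count ran from 276 to 1854, against 469. Plau was under 0.05 with array weights (limma, unadjusted p = 0.0388), where 1854 of all genes were. It was also under 0.05 without control replicate 2 (limma, unadjusted p = 0.0316), where 654 of all genes were. In every other fit the member count at that level was 0. The number of members higher in the knockout, 5, ran from 2 to 7 when each array was left out, with 2 without control replicate 3, and it was 3 without both arrays of high Gapdh ratio, an alternative chosen after seeing the data. The median log2 fold change of the members ran from -0.14 to 0.093. With the replicate number as a block the count past the threshold was 0. The count of members higher was 5 by design, as both groups hold the same replicate numbers and the block cannot move a log2 fold change. Same-numbered arrays deviated together with correlations of 0.19, -0.15 and -0.11, and arrays of unlike number with -0.22 to 0.22. The sex pattern was male, female and male in replicates 1 to 3 of both groups. Whether the numbers pair the samples cannot be settled from 3 arrays per group. Of 167 member values 18 changed sign, 11 of them when 1 array was left out, and those of Agrn and Plau, 2 of the 10, did not. The share is no measure of stability, as several alternatives could not change a sign. The replicate block, the sex term, the other variance models, the filter on dim genes and single probe sets left the log2 fold changes as they were. With array weights Plat was -0.070, Celsr2 0.0044 and Fat1 -0.12. Without both arrays of high Gapdh ratio Plat was -0.097, Celsr1 -0.0012, Celsr2 0.016 and Fat1 -0.23. Leaving out single arrays gave ranges of -0.091 to 0.13 for Svep1, -0.16 to 0.078 for Slit3, -0.70 to 0.015 for Vcan, -0.13 to 0.096 for Celsr2, -0.30 to 0.091 for Slit2, -0.093 to 0.27 for Plat and -0.20 to 0.51 for Fat1. The cause of these sign changes was not tested. The filter on dim genes removed Plau, Slit2 and Celsr1, so it gave no value for them; of the 7 members left 4 were higher and 0 passed, with a median of 0.018.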
